A study of Ambystoma mexicanum with 18 samples.

Results

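The comparison described here is that of blastema cells electroporated with wild-type Tig1 against non-transfected cells, 8 days post electroporation (dpe). It takes 6 of the 18 libraries of the series, the 3 labelled as Tig1 cells and the 3 labelled as control cells at 8 dpe, and covers every gene model of the deposited table that passed a filter on low counts, 25377 of 99126. The animals were axolotls carrying 1 allele of Hoxa13 tagged with mCherry (Hoxa13:Hoxa13-T2a-mCherry), whose forelimbs had been amputated through the upper arm near the elbow, and late bud blastemas were electroporated with a plasmid for Tig1 joined to GFP by a T2a sequence. Tig1 cells were sorted as mCherry+/GFP+ (double positive) and control cells as mCherry+/GFP− from electroporated blastemas, so both groups share the knock-in reporter, the amputation and the electroporated tissue. Epidermis was removed before the tissue was dissociated with Liberase. For each condition 12 blastemas were pooled and 300 sorted cells went into each Smart-seq2 library. The study's methods call the libraries of a condition biological replicates and do not say how the pooled blastemas were divided among them, so the p-values measure the spread between these libraries, part of which may be technical. No cells with GFP alone are among the libraries. The other libraries, Tig1 and control cells at 3 dpe and cells with Tig1P155A (the same protein with a mutation in its latexin domain) at both times, are drawn on for the estimate of the spread and for values set beside those of 8 dpe.

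Tig1 (tazarotene-induced gene 1, also RARRES1) encodes a membrane protein with a latexin-like domain and is known as a gene that retinoic acid induces. A blastema is the mound of progenitor cells that rebuilds a salamander limb. Its mesenchyme derives largely from connective tissue, makes a matrix rich in collagens, fibrillins and tenascins, and keeps positional identity along the limb: MEIS and PROD1 genes mark proximal (upper arm) identity, and Hoxa13 marks the distal limb, the hand. Macrophages and other leukocytes enter the blastema from the blood. They engulf debris, digest it in acid lysosomes, sense microbes and damaged cells through Toll-like and other receptors, and depend on the transcription factor SPI1 (PU.1) and the growth factor receptor CSF1R. In bulk libraries, fewer cells of a type and less RNA per cell cannot be told apart.

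The 6 libraries held between 9732514 and 21882340 counts, of which the mitochondrial genome took 23.5% to 52.9%, and 23832 to 26072 gene models were detected in each. The shallowest was Tig1 replicate 3, with 4581599 counts outside the mitochondrial genes. Correlations between replicates across genes were 0.948 to 0.968 in control cells and 0.852 to 0.866 in Tig1 cells. Levels are given as counts scaled to the TMM-adjusted library size (normalised CPM), in the order replicate 1, 2 and 3. They are not divided by gene length, so they are compared between libraries and not between genes. A count of 0 in a library allowed up to 0.0982 to 0.384 CPM (3 counts). As these reads carry no molecular identifiers, such limits and all counting intervals cover counting error only. Differences are log2 fold changes from edgeR's quasi-likelihood test, fitted to all 18 libraries with 12 residual degrees of freedom, and a gene is called higher or lower at a Benjamini-Hochberg adjusted p under 0.05. The SE beside a log2 fold change is its absolute value divided by the square root of the test's F statistic. It is not a separately fitted standard error.

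The electroporated gene checked the labels. Its model, AMEX60DD001823 (LOC115479139, chromosome 10p from 881792072 to 881958443 on AmexG_v6.0-DD), had normalised CPM of 8.18, 3.84 and 7.05 in control cells and 174, 343 and 294 in Tig1 cells (log2 fold change 5.40, SE 0.52, adjusted p = 7.47e-07). The groups did not overlap, and the difference stayed between 4.87 and 5.64 under every alternative run. Counts of this model hold reads of the electroporated construct and of the endogenous gene together. Of the defining markers fixed for the sorted mesenchyme, 10 of 13 were tested, all of them were detected in both groups and 3 were lower in Tig1 cells. Of 13 defining myeloid markers, which include general leukocyte genes such as PTPRC, 11 were tested and all 11 were higher in Tig1 cells.

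At 8 dpe, 3020 of the 25377 genes tested (11.9%) were called, 2693 of them higher in Tig1 cells (10.6% of the genes tested) and 327 lower (1.29%). These percentages are the background against which the gene lists described next are read. Of the called genes 89.2% were higher, and 2032 were at least 4-fold higher while 118 were at least 4-fold lower. The excess of higher calls was found at every level of expression. Among genes under 1 CPM, 250 were higher and 18 lower, and among those over 64 CPM, 434 were higher and 121 lower. TMM scaling centres the bulk of the genes near 0, so a centred bulk is no result about the cells. The median log2 fold change was 0.12 over all genes tested and 0.01 over the 11663 genes whose mean was 4 CPM or more. With library size alone the latter was −0.52. In 274 called genes no control library had a count, and in 14 no Tig1 library had one. The split depended on scaling: with library size alone 1639 genes were higher and 469 lower, with DESeq2 3238 and 1050. Leaving out Tig1 replicate 1 raised the lower calls to 473, while leaving out any 1 of the other 5 libraries reduced them to between 89 (Tig1 replicate 3) and 170 (control replicate 2). Regardless of the test, the 3 Tig1 libraries all lay above the 3 control libraries in 16.9% of the genes tested and all below them in 14.9%.

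**Figure D1:**
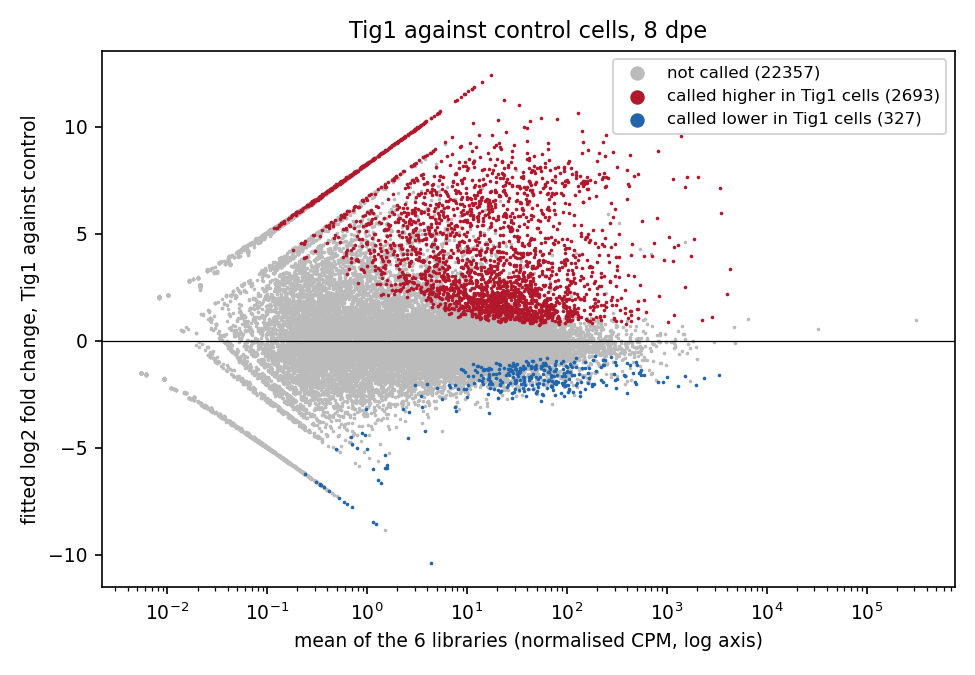
Mean level (normalised CPM, log axis) and log2 fold change of Tig1 against control cells at 8 dpe for the genes tested, without those at 0 in all 6 libraries. Coloured points are the 2693 genes called higher and the 327 called lower, which lie on both sides of a bulk that the scaling centres near 0.

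**Figure D2:**
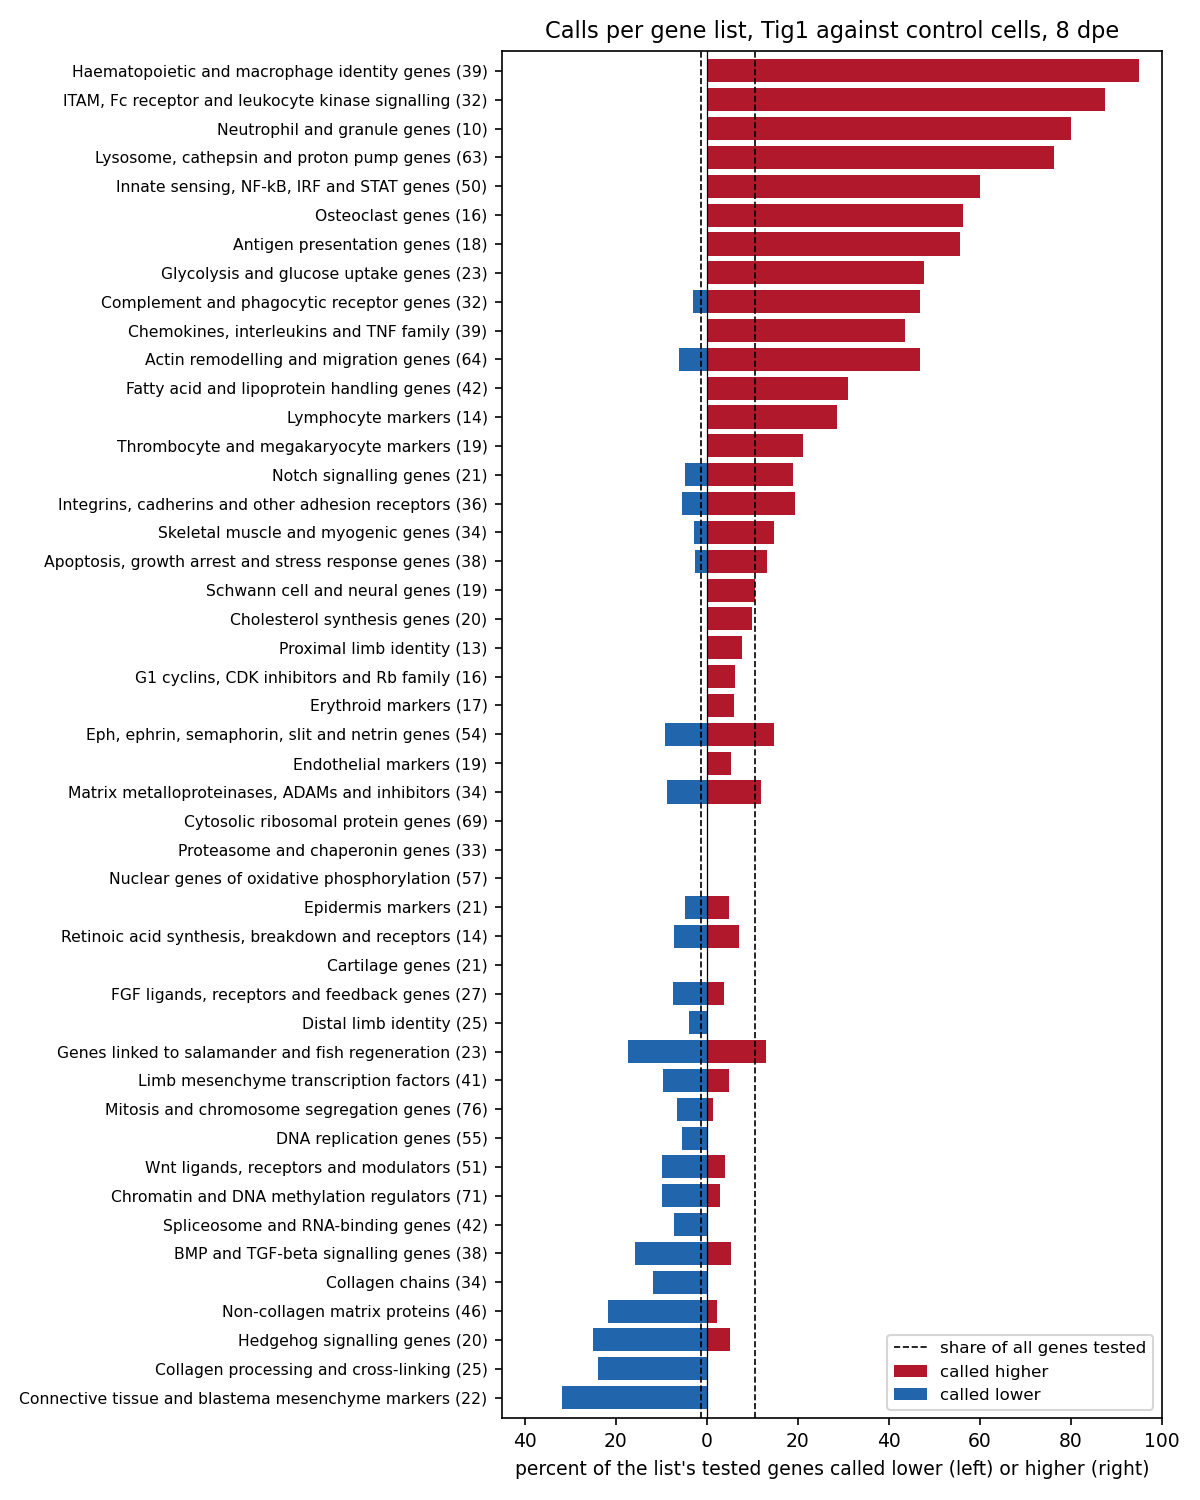
Share of the tested members of each of 47 gene lists that was called higher (right) or lower (left) in Tig1 cells at 8 dpe, in percent. The dashed lines mark the shares over all genes tested, 10.6% higher and 1.29% lower; myeloid identity, leukocyte signalling, neutrophil and lysosome genes extend furthest to the right.

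Genes of haematopoietic and macrophage identity were higher in Tig1 cells almost throughout. Of 39 members tested 37 were higher and 0 lower, with a median log2 fold change of 7.12 (6.94 with genes at 0 in a group set to the bound that 3 counts give), beside 0.12 over all genes. Summed over the list, control libraries held 104 to 130.0 CPM and Tig1 libraries 6870.0 to 12400.0 CPM. PTPRC (CD45, the phosphatase found on all leukocytes) had normalised CPM of 1.15, 1.32 and 2.51 in control cells and 191, 379.6 and 310.4 in Tig1 cells (log2 fold change 7.46, SE 1.04, adjusted p = 4.05e-05). CSF1R, the receptor for macrophage colony stimulating factor, had 2.06, 0.659 and 2.77 CPM in control cells and 263, 504 and 477 CPM in Tig1 cells (log2 fold change 7.80, SE 0.76, adjusted p = 8.30e-07). Each Tig1 library thus lay far above each control library in both genes. SPI1, the transcription factor of the myeloid lineage, had 0, 0.110 and 0.0369 CPM in control cells, 3 counts in total, and 15.9, 22.9 and 35.5 CPM in Tig1 cells, 568-fold (95% counting interval 194 to 2760.0) higher. IKZF1, a lymphoid and myeloid transcription factor, rose from 0.262, 0.110 and 0 to 29.6, 52.5 and 50.3 CPM, and IRF8, which directs monocyte development, from 0.196, 0.329 and 0.406 to 18.5, 47.4 and 49.9 CPM. C1QB, a chain of complement C1q made by macrophages, had 9.46, 9.99 and 17.2 CPM in control cells and 1639, 3319 and 1976 CPM in Tig1 cells (log2 fold change 7.56, SE 1.08, adjusted p = 4.84e-05). MARCO, a scavenger receptor, had 4.65, 3.13 and 2.58 CPM in control cells and 1527, 1844 and 1509 CPM in Tig1 cells (log2 fold change 8.87, SE 1.28, adjusted p = 5.34e-05). CD68, a glycoprotein of macrophage lysosomes, MPEG1, a pore-forming protein, and AIF1, an actin-binding protein of macrophages, rose by 8.66, 7.62 and 7.62 on the log2 scale. The smallest rises among the called members were those of RUNX1 (1.56), a transcription factor of blood stem cells, and AXL (1.61), a receptor for dying cells. Leaving out 1 library ended the call of RUNX1 (3 of 6, 0.22 without Tig1 replicate 2) (libraries whose removal ended it, with the highest adjusted p), and library size alone in place of TMM ended that of AXL. The calls of PTPRC, CSF1R, SPI1, C1QB, MARCO, CD68, MPEG1, AIF1, IKZF1 and IRF8 were kept with any 1 of the 6 libraries left out.

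Signalling proteins that leukocyte receptors use were higher in the same direction. Of 32 genes of immunoreceptor (ITAM), Fc receptor and leukocyte kinase signalling, 28 were higher and 0 lower, with a median of 5.98 (5.64 with bounds). SYK, the kinase that binds phosphorylated ITAMs, had 0, 0 and 0.960 CPM in control cells and 11.1, 20.4 and 33.8 CPM in Tig1 cells (log2 fold change 6.01, SE 1.10, adjusted p = 7.01e-04), and 2 of the 3 control libraries had no count. BTK, a Tec family kinase of B and myeloid cells, had 0.524, 1.43 and 0 CPM in control cells and 43.1, 92.7 and 83.5 CPM in Tig1 cells (log2 fold change 6.88, SE 0.81, adjusted p = 6.27e-06). LYN, a kinase of the Src family, rose by 4.55 on the log2 scale, PLCG2, a phospholipase, by 5.29, and RAC2, the Rac GTPase of blood cells, by 6.46. PTPN6 (SHP-1), a phosphatase that restrains these pathways, rose by 7.36, and INPP5D (SHIP1), a lipid phosphatase with the same role, by 6.43. Kinases and the phosphatases that oppose them were thus higher together. SASH3, an adaptor of lymphocytes, had no count in control cells and 26.6, 34.7 and 23.4 CPM in Tig1 cells, at least 752-fold higher against 3 counts over the control group. Neutrophil and granule genes include the phagocyte NADPH oxidase, which makes superoxide, and of these genes 8 of 10 were higher. CYBB, a subunit of this oxidase, had 1.80, 1.76 and 1.14 CPM in control cells and 275, 412 and 268 CPM in Tig1 cells (log2 fold change 7.66, SE 1.08, adjusted p = 4.53e-05). Tig1 and control libraries did not overlap in CYBB. Of the 7 defining neutrophil markers, MPO, ELANE, CEBPE and LTF were not tested. Each had no gene model under that symbol or did not pass the filter, so they say nothing about neutrophils here.

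Of 39 chemokines, interleukins, TNF family members and their receptors, 17 were higher and 0 lower, with a median of 2.79 (2.21 with bounds). Receptors made up most of these calls. CSF2RB, the common chain of the GM-CSF, IL-3 and IL-5 receptors, had 0.0982, 0.384 and 0.0738 CPM in control cells and 32.0, 64 and 58.4 CPM in Tig1 cells (log2 fold change 8.21, SE 0.82, adjusted p = 1.13e-06). IL6R had 0.524, 0.0549 and 1.74 CPM in control cells and 39.3, 124 and 106 CPM in Tig1 cells (log2 fold change 6.81, SE 1.15, adjusted p = 3.00e-04). IL10RA, a chain of the receptor for the inhibitory cytokine IL-10, had 1.44, 1.54 and 2.25 CPM in control cells and 20.9, 43.5 and 35.6 CPM in Tig1 cells (log2 fold change 4.25, SE 0.44, adjusted p = 1.44e-06). All Tig1 libraries lay above all control libraries in these 3 receptors. The receptors for tumour necrosis factor, TNFRSF1A and TNFRSF1B, rose by 2.79 and 4.66 on the log2 scale. CXCR4, the receptor for CXCL12, rose from 3.80, 1.65 and 3.21 to 31.1, 59.8 and 38.7 CPM. Among ligands, TNFSF13B (BAFF), a survival factor for B cells, rose from 0.0327, 0.165 and 0.0369 to 26.6, 30.5 and 39.4 CPM and IL34, the second ligand of CSF1R, from 0.851, 1.65 and 0.738 to 7.04, 7.23 and 8.45 CPM. CCL19, a chemokine for lymphocytes and dendritic cells, had 0.0327, 0.165 and 0 CPM in control cells and 12.6, 0.295 and 1.79 CPM in Tig1 cells, most of it in Tig1 replicate 1. The calls of 2 of the genes in this paragraph ended when single libraries were left out (number of the 6 libraries whose removal ended the call, with the highest adjusted p): CCL19 (3 of 6, 0.24 without Tig1 replicate 1) and IL34 (2 of 6, 0.11 without control replicate 3).

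Innate sensors and the factors downstream of them were higher as well, 30 of 50 with 0 lower and a median of 1.86. Of 8 Toll-like receptors tested 7 were higher. TLR7 and TLR8, endosomal receptors for RNA, had 1.34, 2.09 and 1.37 CPM and 0.917, 0.165 and 0.849 CPM in control cells and 118, 193 and 229 CPM and 101, 238 and 219.6 CPM in Tig1 cells. TLR5, the receptor for flagellin, rose by 4.34, TLR3, which binds double-stranded RNA, by 3.40, and TLR2, which binds bacterial lipopeptides, by 3.04. TLR21, a receptor for unmethylated DNA in birds and fish, rose by 7.72. The 3 Tig1 libraries of each of these receptors lay above the 3 control libraries. Of 8 interferon regulatory factors 6 were higher, among them IRF3 (4.29, 4.45 and 3.51 CPM in control cells and 44.9, 51.4 and 51.7 CPM in Tig1 cells; log2 fold change 3.59, SE 0.43, adjusted p = 7.01e-06) and IRF7 (log2 fold change 2.66, SE 0.40, adjusted p = 7.73e-05), which turn on type I interferon. In the NF-kB pathway NFKB1 rose by 2.21, NFKB2 by 1.57 and REL, the subunit of blood cells, by 4.94, together with its inhibitors NFKBIE (5.35), NFKBIA (2.54) and TNFAIP3 (2.69). STAT2, which transmits interferon signals, also rose (log2 fold change 1.72, SE 0.28, adjusted p = 2.16e-04). With library size alone the calls of NFKB2 and STAT2 were lost.

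Antigen presentation genes numbered 18, of which 10 were higher and 0 lower, with a median of 3.66 (2.97 with bounds). CD74, the invariant chain of MHC class II, had 9.59, 6.37 and 15.0 CPM in control cells and 541, 649 and 510.3 CPM in Tig1 cells (log2 fold change 5.78, SE 0.40, adjusted p = 4.51e-08). B2M, the light chain of MHC class I, had 29.3, 13.4 and 18.2 CPM in control cells and 560.2, 812 and 581 CPM in Tig1 cells (log2 fold change 5.0, SE 0.40, adjusted p = 1.33e-07). IFI30, a thiol reductase that opens antigens in the endosome, had 29.0, 24.3 and 22.2 CPM in control cells and 383, 632 and 556 CPM in Tig1 cells (log2 fold change 4.38, SE 0.33, adjusted p = 8.35e-08). In these 3 genes every Tig1 library lay far above every control library. CTSS, the protease that trims the invariant chain, rose by 7.21, and CD86, a costimulatory ligand for T cells, by 6.17. CIITA, the regulator of MHC class II genes, had 0.949, 0.384 and 0.406 CPM in control cells and 5.05, 1.53 and 4.61 CPM in Tig1 cells (log2 fold change 2.66, SE 0.78, adjusted p = 0.0294). Its call ended with 4 of the 6 libraries left out (CIITA (4 of 6, 0.14 without control replicate 3)). HLA-DPB1, a model named after a human class II chain, rose by 4.07, in a count that leaves out reads shared with any close copy.

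Complement and phagocytic receptor genes moved in both directions, 15 of 32 higher and 1 lower (0 without Tig1 replicate 2), with a median of 2.47. C3AR1, the receptor for the C3a peptide, rose from 0.262, 0 and 0.0369 to 32.4, 89.6 and 44.9 CPM, and CFP (properdin), which stabilises the alternative pathway convertase, from 0.262, 0.110 and 0.628 to 43.4, 55.8 and 36.1 CPM. TIMD4, a receptor for phosphatidylserine on dying cells, rose from 8.31, 7.80 and 9.67 to 64, 97.0 and 56.6 CPM, and STAB1, a scavenger receptor, from 0.0327, 0.439 and 0.0738 to 14.1, 14.1 and 5.51 CPM. MERTK, a receptor tyrosine kinase for apoptotic cells, had 1 count in control cells and was 163-fold (95% counting interval 28.5 to 6490.0) higher. C5 had 0, 0 and 0 CPM in control cells and 0.241, 0 and 4.99 CPM in Tig1 cells, with its call resting on Tig1 replicate 3. The 1 lower member was GULP1, an engulfment adaptor, with 73.3, 69.5 and 85.5 CPM in control cells and 15.9, 14.9 and 16.4 CPM in Tig1 cells (log2 fold change −2.27, SE 0.60, adjusted p = 0.0144). The calls that ended with single libraries left out were C5 (4 of 6, 0.26 without Tig1 replicate 3) and GULP1 (1 of 6, 0.057 without Tig1 replicate 2).

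Of 63 lysosome, cathepsin and proton pump genes 48 were higher and 0 lower, with a median of 2.48. In 51 of them the Tig1 libraries all lay above the control libraries. The summed level was 1590.0 to 2380.0 CPM in control cells and 16400.0 to 28200.0 CPM in Tig1 cells, so that these genes were detected in both groups. The proteases CTSB, CTSL, CTSC and CTSS were the 4 of 6 cathepsins that were called. CTSB had 176, 90.6 and 132 CPM in control cells and 2582, 4951 and 3232 CPM in Tig1 cells (log2 fold change 4.76, SE 0.43, adjusted p = 4.15e-07). CTSL had 135, 95.4 and 112 CPM in control cells and 1993, 2683 and 2784 CPM in Tig1 cells (log2 fold change 4.45, SE 0.38, adjusted p = 2.34e-07). PSAP, the precursor of the saposins that help to degrade sphingolipids, had 259, 163 and 208 CPM in control cells and 2707, 4583 and 2549 CPM in Tig1 cells (log2 fold change 3.96, SE 0.49, adjusted p = 9.87e-06). The groups lay far apart in these 3 genes, with Tig1 replicate 2 the highest library in CTSB and PSAP. Enzymes of lipid and glycan breakdown rose too: ASAH1 (acid ceramidase) by 5.57, NEU1 (sialidase) by 3.78, GLA (alpha-galactosidase A) by 3.64, GLB1 (beta-galactosidase) by 3.62 and NPC2, which binds cholesterol in the lysosome, by 3.74 on the log2 scale. Of 17 subunits of the vacuolar proton pump 13 were higher. The rises of 11 lay between 1.64 (ATP6V1D) and 2.95 (ATP6V0B) on the log2 scale, while ATP6V1C2 rose by 5.98. The call of ATP6V1D ended without Tig1 replicate 2 (adjusted p = 0.056) and with library size alone (0.18). The subunit ATP6V0D2, known from macrophages and osteoclasts, had 2.16, 0.659 and 0.332 CPM in control cells and 133, 266 and 171 CPM in Tig1 cells (log2 fold change 7.46, SE 0.97, adjusted p = 1.80e-05). The transcription factors that control lysosomal genes, MITF (5.35), TFEB (3.78) and TFE3 (2.79), were all higher.

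Osteoclasts are multinucleated cells of the macrophage lineage that resorb bone and calcified cartilage. Of 16 genes of the osteoclast list 9 were higher and 0 lower, with a median of 2.85 (2.65 with bounds). Of these, 5 are also lysosome or proton pump genes. ACP5, the tartrate-resistant acid phosphatase, had 14.2, 15.2 and 15.0 CPM in control cells and 185, 249 and 243 CPM in Tig1 cells (log2 fold change 3.93, SE 0.33, adjusted p = 2.25e-07). OCSTAMP, a membrane protein needed for the fusion of osteoclast precursors in mice, had no count in control cells and 2.65, 10.7 and 9.35 CPM in Tig1 cells, at least 189-fold higher. SIGLEC15, a receptor that also acts in osteoclast differentiation in mice, had no count in control cells and 0.541, 24.8 and 5.25 CPM in Tig1 cells, most of it in replicate 2, at least 313-fold higher. MMP9, a gelatinase of leukocytes and osteoclasts, rose from 0.556, 1.48 and 1.40 to 52.2, 83.1 and 24.7 CPM. Of the 4 defining osteoclast markers 2 were higher, ACP5 and OCSTAMP. The other defining markers, CTSK (cathepsin K) and CALCR (the calcitonin receptor), were not called. CALCR had no count in control cells and 2 counts in Tig1 cells.

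Lipid handling genes had a median close to that of all genes but included large rises, 13 of 42 higher and 0 lower, with a median of 0.50. There were 7 higher and 1 lower with library size alone. PPARG, a nuclear receptor for fatty acids, had 0.164, 0 and 0.0369 CPM in control cells and 3.25, 3.64 and 4.35 CPM in Tig1 cells (log2 fold change 5.55, SE 1.09, adjusted p = 0.00136). NR1H3 (LXR alpha), the nuclear receptor for oxysterols, had 0.229, 0.659 and 0.480 CPM in control cells and 23.4, 46.2 and 44.2 CPM in Tig1 cells (log2 fold change 6.40, SE 0.48, adjusted p = 8.27e-08). ABCA1, the cholesterol exporter that LXR controls, had 19.7, 26.0 and 29.1 CPM in control cells and 258, 560.2 and 364 CPM in Tig1 cells (log2 fold change 3.98, SE 0.37, adjusted p = 5.83e-07). FABP2, a fatty acid binding protein known from the intestine of mammals, had 2.36, 0.659 and 0.517 CPM in control cells and 342, 692 and 406 CPM in Tig1 cells (log2 fold change 8.64, SE 1.32, adjusted p = 1.02e-04). The libraries of the groups did not overlap in any of these 4 genes. PLIN2, which coats lipid droplets, rose by 3.42, and SOAT1, which makes cholesterol esters, by 1.94, a call that library size alone ended. Cholesterol synthesis genes had 2 higher of 20, 0 lower and a median of −0.02. INSIG1, which holds back sterol synthesis, had 6.42, 5.33 and 12.7 CPM in control cells and 41.5, 43.3 and 57.4 CPM in Tig1 cells (log2 fold change 2.53, SE 0.52, adjusted p = 0.00197). With library size alone, 7 in place of 13 lipid handling genes were higher and INSIG1 was not called.

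Glycolysis and glucose uptake genes had 11 higher of 23, 0 lower and a median of 1.14. PKM, pyruvate kinase, had 272, 254 and 201 CPM in control cells and 470.1, 971 and 464 CPM in Tig1 cells (log2 fold change 1.39, SE 0.30, adjusted p = 0.00317). ALDOA, aldolase, had 192, 119 and 139.6 CPM in control cells and 379, 734 and 302 CPM in Tig1 cells (log2 fold change 1.65, SE 0.33, adjusted p = 0.00180). TKT, transketolase of the pentose phosphate pathway, showed a larger rise, with 21.8, 16.3 and 9.75 CPM in control cells and 152, 135 and 129 CPM in Tig1 cells (log2 fold change 3.12, SE 0.36, adjusted p = 5.01e-06). These were higher in all 3 Tig1 libraries. Without control replicate 3 the number of higher members was 7 and without Tig1 replicate 2 it was 6, and with library size alone the calls of PKM and ALDOA were lost. The call of PKM also ended without Tig1 replicate 2 (adjusted p = 0.089). Of genes that handle iron and haem, for which no list was made, FTH1 was among the largest rises in CPM. FTH1, the ferritin heavy chain that stores iron, had 784, 809 and 758 CPM in control cells and 5203, 10318 and 8105 CPM in Tig1 cells (log2 fold change 3.33, SE 0.29, adjusted p = 2.99e-07). HMOX1, haem oxygenase, which breaks haem down, rose from 14.4, 6.42 and 4.36 to 87.2, 181 and 69.7 CPM. TFRC, the transferrin receptor, had 24.7, 14.6 and 18.9 CPM in control cells and 39.2, 66.8 and 52.4 CPM in Tig1 cells (log2 fold change 1.44, SE 0.40, adjusted p = 0.0203), and its call ended with 3 of the 6 libraries left out (TFRC (3 of 6, 0.16 without Tig1 replicate 2)).

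Actin remodelling and migration genes were called in both directions. Of 64 members 30 were higher and 4 lower, with a median of 1.34. The higher calls were 16 with library size alone. Higher members included subunits and activators of the Arp2/3 complex, which branches actin filaments: ARPC1B (82.4, 60.3 and 77.2 CPM in control cells and 466, 710.4 and 572 CPM in Tig1 cells; log2 fold change 2.99, SE 0.26, adjusted p = 2.93e-07), ARPC2 (1.69), ARPC3 (1.56) and ARPC5 (1.96); with library size alone the calls of these last 3 were lost. WAS, the activator found in blood cells, also rose (1.83, 1.54 and 1.77 CPM in control cells and 78.7, 135 and 159 CPM in Tig1 cells; log2 fold change 6.17, SE 0.38, adjusted p = 3.34e-08). CORO1A, a coronin of leukocytes, rose by 7.68, and EVL, an Ena/VASP protein, by 6.97. LCP1, the plastin of leukocytes, had 0.196, 0 and 0.0369 CPM in control cells and 6.25, 32.0 and 13.8 CPM in Tig1 cells (log2 fold change 7.53, SE 1.03, adjusted p = 3.07e-05). FERMT3, the kindlin of blood cells, had 0.0327, 0.0549 and 0.369 CPM in control cells and 5.95, 31.1 and 20.5 CPM in Tig1 cells (log2 fold change 6.88, SE 0.96, adjusted p = 3.89e-05). Their counterparts outside blood moved the other way. PLS3, a plastin of other tissues, had 203, 206 and 202 CPM in control cells and 168, 60.04 and 73.1 CPM in Tig1 cells (log2 fold change −1.02, SE 0.32, adjusted p = 0.0445). FERMT2, the widely expressed kindlin, had 136, 103 and 148 CPM in control cells and 55.4, 34.4 and 9.86 CPM in Tig1 cells (log2 fold change −1.95, SE 0.55, adjusted p = 0.0248). MYL9, a light chain of smooth muscle and nonmuscle myosin, fell by 2.0 on the log2 scale (116, 70.2 and 90.0 CPM in control cells and 37.0, 19.8 and 12 CPM in Tig1 cells), and CNN3, a calponin, also fell (log2 fold change −1.96, SE 0.60, adjusted p = 0.0403). With library size alone 16 in place of 30 members were higher. The 4 lower calls became 1 without control replicate 1 or 3 or Tig1 replicate 2 or 3 and 2 without control replicate 2, with MYL9 kept in each and the others ended as follows: CNN3 (5 of 6, 0.17 without Tig1 replicate 3), FERMT2 (4 of 6, 0.096 without Tig1 replicate 3) and PLS3 (5 of 6, 0.19 without Tig1 replicate 3).

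By the rule for the largest changes, which took genes with a symbol, at least 4 CPM on average and groups that did not overlap, the 12 largest rises held 5 genes without a count in any control library. Beside SASH3 and SIGLEC15 these were PTAFR, the receptor for platelet-activating factor (18.2, 34.3 and 18.7 CPM in Tig1 cells, at least 647-fold higher), BTLA, an inhibitory receptor of lymphocytes (23.8, 20.8 and 23.2 CPM, at least 565-fold), and ZDHHC2, a palmitoyltransferase (8.90, 13.1 and 10.4 CPM, at least 280.0-fold). HYTOHE had 0.196, 0 and 0 CPM in control cells and 105, 165 and 59.2 CPM in Tig1 cells (log2 fold change 10.38, SE 1.09, adjusted p = 1.83e-06). TREML1, a receptor known from platelets, had 2 counts in control cells and was 1550.0-fold (95% counting interval 429 to 12800.0) higher. FCN1 (ficolin), a lectin that starts the complement cascade, had 3 counts in control cells and was 902-fold (95% counting interval 308 to 4380.0) higher. THEM6 had 1 count in control cells and was 1480.0-fold (95% counting interval 265 to 58600.0) higher, with 37.5, 0.197 and 31.8 CPM in Tig1 cells, of which replicate 2 was close to the controls. PLBD1, a phospholipase B-like protein of granulocytes, had 4.94, 0.275 and 5.46 CPM in control cells and 2106, 5231 and 929 CPM in Tig1 cells (log2 fold change 9.58, SE 1.46, adjusted p = 9.61e-05). PPM1J, a PP2C-type phosphatase, had 0.393, 0.220 and 0 CPM in control cells and 108, 112 and 168 CPM in Tig1 cells (log2 fold change 9.24, SE 0.76, adjusted p = 1.78e-07). The last of the 12, TTN, is described with the muscle genes. Removal of single libraries ended 1 of these calls other than that of TTN, THEM6 (3 of 6, 0.097 without control replicate 1).

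The largest rises in CPM were those of FTH1, SELENOP, VIM, PLBD1, CTSB, PSAP, LGALS3BP and CTSL. SELENOP, the plasma carrier of selenium, had 109, 88.2 and 136 CPM in control cells and 5372, 8149 and 6989 CPM in Tig1 cells (log2 fold change 5.95, SE 0.41, adjusted p = 4.01e-08). VIM, the intermediate filament vimentin of mesenchymal cells and leukocytes, had 1475, 1209 and 1659.5 CPM in control cells and 5238, 8173 and 5999.9 CPM in Tig1 cells (log2 fold change 2.16, SE 0.31, adjusted p = 6.08e-05). LGALS3BP, a secreted galectin-binding glycoprotein, had 36.8, 5.88 and 20.1 CPM in control cells and 1815, 4204 and 3133 CPM in Tig1 cells (log2 fold change 7.18, SE 1.19, adjusted p = 2.28e-04). LGALS1, galectin-1, rose from 114, 127 and 142 to 1461, 2269 and 1489 CPM. All 4 were higher in each Tig1 library than in each control library, and only VIM lost its call with library size alone (adjusted p = 0.051).

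**Figure D3:**
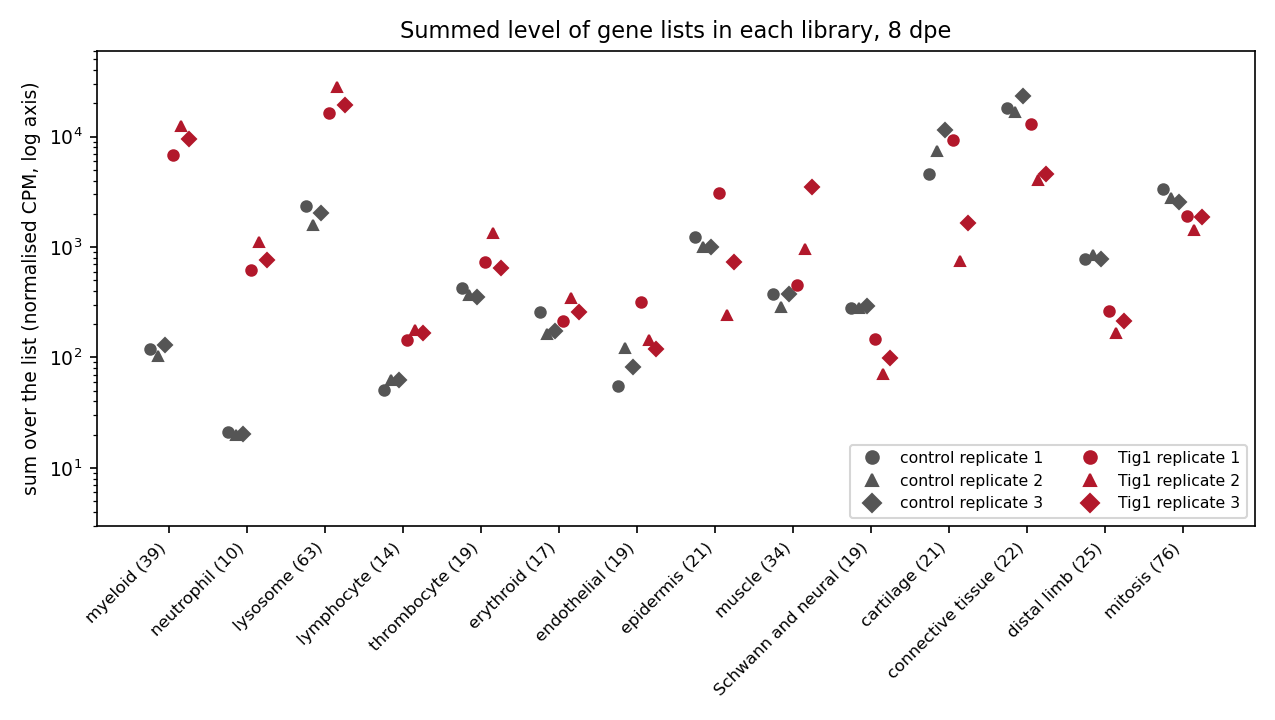
Summed level (normalised CPM, log axis) of the tested members of 14 gene lists in each of the 6 libraries at 8 dpe, with the number of members in brackets. Myeloid, neutrophil, lysosome, lymphocyte and thrombocyte sums lie higher in all 3 Tig1 libraries and distal limb, connective tissue, Schwann and mitosis sums lower. Muscle sums also lie higher in all 3 Tig1 libraries, most in replicate 3. Epidermis and endothelial sums are led by Tig1 replicate 1, and cartilage sums overlap between the groups.

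Markers of other cell types that a sorted blastema sample could hold did not form 1 pattern. Of 14 lymphocyte markers 4 were higher (sums of 50.8 to 62.3 CPM in control and 145 to 176 CPM in Tig1 cells): BLNK, BTK, CD247 and BTLA, of which BLNK and BTK also serve myeloid cells. The defining marker CD79B had no count in either group, and PAX5 and LCK had none in control cells. Of 19 thrombocyte markers 4 were higher (sums of 354 to 422 and 644 to 1350.0 CPM), among them P2RY12, the platelet ADP receptor, which rose from 0.229, 0.549 and 0 to 6.86, 19.6 and 11.8 CPM. Erythroid markers had 1 higher of 17 and sums of 164 to 256 and 216 to 347 CPM. The endothelial list had 1 higher of 19, ROBO4 (0.458, 1.87 and 0.148 CPM in control cells and 76.8, 106 and 86.4 CPM in Tig1 cells; log2 fold change 6.83, SE 0.72, adjusted p = 1.97e-06). None of its 4 defining markers tested was called, and CDH5, the cadherin of vessel walls, had 0, 2.53 and 0 CPM in control cells and 23.5, 0.0984 and 0.128 CPM in Tig1 cells. Epidermal genes reached a sum of 3119 CPM in Tig1 replicate 1, against 240.1 and 736 in the others and 994 to 1240.0 in control cells, with KRT5, a basal keratin, at 1199.6, 3.74 and 0.512 CPM in Tig1 cells. KRT18, a keratin of simple epithelia, fell (619, 728 and 692 CPM in control cells and 414, 147 and 146 CPM in Tig1 cells; log2 fold change −1.53, SE 0.48, adjusted p = 0.0442), and ST14, an epithelial serine protease, rose (log2 fold change 2.88, SE 0.57, adjusted p = 0.00132). Schwann and neural genes had sums of 278 to 294 CPM in control cells and 70.4 to 147 CPM in Tig1 cells, with 2 of 19 higher, MBP and EGR2. The call of KRT18 ended in 5 of the 6 removals of 1 library (0.19 without Tig1 replicate 3). The part of these cell types in the other differences was not tested.

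Skeletal muscle and myogenic genes gave 5 higher and 1 lower calls of 34, with a median of 3.22 and sums of 288 to 375 CPM in control cells and 457.3, 958.9 and 3473 CPM in Tig1 cells. The higher calls were 11 in a fit of the 6 libraries, 10 with DESeq2, 18 with every gene with a count and 3 with the replicate block, and 9 and 8 without Tig1 replicate 1 or 2, where none was lower. In 18 of the 34 all Tig1 libraries lay above all control libraries, beside 16.9% of all genes. The levels of the contractile genes TTN, MYLPF and NEB were by far the highest in Tig1 replicate 3. TTN, the giant spring protein of the sarcomere, had 0.655, 0.165 and 0.997 CPM in control cells and 11.7, 7.53 and 1458 CPM in Tig1 cells (log2 fold change 9.61, SE 2.41, adjusted p = 0.0103). MYLPF, a fast myosin light chain, had 1.11, 0.439 and 0.554 CPM in control cells and 9.14, 8.86 and 221 CPM in Tig1 cells (log2 fold change 6.78, SE 1.88, adjusted p = 0.0209). NEB, nebulin, had 0.917, 0 and 1.40 CPM in control cells and 0.661, 1.72 and 132 CPM in Tig1 cells (log2 fold change 5.81, SE 1.71, adjusted p = 0.0300). Replicates 1 and 2 were above the controls in TTN and MYLPF and at their level in NEB. MEF2C, a transcription factor of muscle and also of myeloid cells, rose evenly, with 8.77, 8.07 and 17.1 CPM in control cells and 39.1, 71.9 and 52.0 CPM in Tig1 cells (log2 fold change 2.26, SE 0.33, adjusted p = 7.06e-05). Calls ended with libraries left out for TTN (3 of 6, 0.18 without Tig1 replicate 3), MYLPF (4 of 6, 0.2 without Tig1 replicate 3), NEB (4 of 6, 0.89 without Tig1 replicate 3) and MYL1 (4 of 6, 0.29 without Tig1 replicate 3). Among the 2032 genes with at least 4 CPM that were called higher, 15 had at least 80% of their summed Tig1 level in replicate 3, 2 in replicate 1 and 2 in replicate 2.

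Genes of the connective tissue lineage and of blastema mesenchyme lay lower in Tig1 cells. Of 22 tested 7 were lower and 0 higher, where 1.29% of all genes were lower, and in 15 of them all Tig1 libraries lay below all control libraries, beside 14.9% of all genes. The median was −1.5. PDGFRA, the platelet-derived growth factor receptor of fibroblasts, had 256, 255 and 369 CPM in control cells and 96.2, 61.4 and 43.0 CPM in Tig1 cells (log2 fold change −2.13, SE 0.61, adjusted p = 0.0261). PRRX1, a homeobox gene of limb mesenchyme, had 9.95, 19.4 and 22.7 CPM in control cells and 5.29, 4.38 and 6.79 CPM in Tig1 cells (log2 fold change −1.66, SE 0.53, adjusted p = 0.0487). FSTL1, a secreted follistatin-like glycoprotein, had 3223, 2691 and 3623 CPM in control cells and 1175, 574 and 494 CPM in Tig1 cells (log2 fold change −2.09, SE 0.50, adjusted p = 0.00738). The groups did not overlap in these genes, and Tig1 replicate 1 held the highest Tig1 level of PDGFRA and FSTL1. That library also held the largest share of the summed list, 2.06% of its non-mitochondrial counts against 0.595% and 0.783% in the other Tig1 libraries and 3.43% to 4.75% in control cells. Without it, 11 in place of 7 members were lower, as with library size alone, and the number was 12 with DESeq2 and 13 with every gene with a count. Leaving out Tig1 replicate 2 instead ended the calls of PDGFRA, PRRX1, FSTL1, COL3A1 and COL6A1, which all belong to this list. Among the genes whose levels are given in this paragraph, calls ended with single libraries left out for PDGFRA (3 of 6, 0.12 without Tig1 replicate 3), PRRX1 (5 of 6, 0.17 without control replicate 3) and FSTL1 (1 of 6, 0.058 without Tig1 replicate 2).

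Collagen chains were lower in 4 of 34 cases and higher in 0, with a median of −1.05. COL3A1, the chain of fibrillar type III collagen, had 3486, 3279.7 and 4172 CPM in control cells and 1698, 871 and 664 CPM in Tig1 cells (log2 fold change −1.76, SE 0.47, adjusted p = 0.0167). COL6A1 and COL6A2, chains of the microfibrillar type VI, had 759.5, 545 and 978 CPM and 722, 719 and 1022 CPM in control cells and 294, 168 and 135 CPM and 426, 197 and 197 CPM in Tig1 cells. They fell by 1.94 and 1.59 on the log2 scale. COL12A1, which decorates fibrils, had 489, 543 and 714 CPM in control cells and 202, 129 and 221 CPM in Tig1 cells (log2 fold change −1.66, SE 0.46, adjusted p = 0.0215). In all 4 chains the highest Tig1 library stayed below the lowest control library. Proteins that fold, modify and cut collagen followed, 6 of 25 lower and 0 higher. SERPINH1 (HSP47), the collagen chaperone, had 284, 300.5 and 455 CPM in control cells and 109, 102 and 79.8 CPM in Tig1 cells (log2 fold change −1.84, SE 0.43, adjusted p = 0.00588). BMP1, the protease that cuts the procollagen C-terminus, had 56.5, 48.9 and 65.5 CPM in control cells and 26.8, 12.2 and 10.9 CPM in Tig1 cells (log2 fold change −1.77, SE 0.41, adjusted p = 0.00507). FKBP10, a chaperone of procollagen, had 946, 743 and 966 CPM in control cells and 552, 167 and 149 CPM in Tig1 cells (log2 fold change −1.61, SE 0.42, adjusted p = 0.0143). LOXL1, a lysyl oxidase that cross-links elastic fibres, had 38.5, 61.6 and 71.6 CPM in control cells and 28.7, 9.94 and 10.1 CPM in Tig1 cells (log2 fold change −1.81, SE 0.50, adjusted p = 0.0200). The calls of SERPINH1 and BMP1 were kept with any 1 library left out. Those that ended were COL3A1 (3 of 6, 0.097 without Tig1 replicate 3), COL6A1 (3 of 6, 0.069 without Tig1 replicate 3), COL6A2 (3 of 6, 0.1 without Tig1 replicate 2), COL12A1 (2 of 6, 0.085 without Tig1 replicate 2), FKBP10 (2 of 6, 0.098 without Tig1 replicate 2), LOXL1 (4 of 6, 0.1 without Tig1 replicate 3) and COLGALT1 (2 of 6, 0.065 without control replicate 3). The lower collagen chains numbered 8 without Tig1 replicate 1, with library size alone or in a fit of the 6 libraries, 9 with DESeq2 and 12 with every gene with a count. None of the calls of COL3A1, COL6A1, COL6A2 and COL12A1 was kept without control replicate 3, nor without Tig1 replicate 2. The lower processing genes numbered 10 with DESeq2 or every gene with a count, and without control replicate 3 or Tig1 replicate 2 the lower processing genes numbered 3.

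Of 46 other matrix proteins 10 were lower and 1 higher, with a median of −1.61, and 22 had all Tig1 libraries below the controls. FBN3, a fibrillin, was among the strongest transcripts that fell, with 2021, 1696 and 2564 CPM in control cells and 677, 404 and 375 CPM in Tig1 cells (log2 fold change −2.11, SE 0.43, adjusted p = 0.00196). THBS2, a thrombospondin, had 869, 574 and 936 CPM in control cells and 249, 160.1 and 183 CPM in Tig1 cells (log2 fold change −2.01, SE 0.38, adjusted p = 8.62e-04). OGN, a small leucine-rich proteoglycan, had 203, 167 and 308 CPM in control cells and 64.3, 38.4 and 24.5 CPM in Tig1 cells (log2 fold change −2.41, SE 0.43, adjusted p = 5.27e-04). BGN, biglycan, had 232, 240.0 and 302 CPM in control cells and 75.3, 57.3 and 63.4 CPM in Tig1 cells (log2 fold change −1.98, SE 0.47, adjusted p = 0.00686). All 4 were lower in every Tig1 library. FBLN1, a fibulin, fell by 2.45 on the log2 scale and HAS2, the synthase of hyaluronan, fell by 2.56. LTBP1, which holds latent TGF-beta in the matrix, fell by 2.07 and MFAP2, a microfibril glycoprotein, fell by 1.94. ECM1, a secreted matrix protein, went the other way, with 26.1, 25.0 and 31.9 CPM in control cells and 338, 383 and 219 CPM in Tig1 cells (log2 fold change 3.5, SE 0.47, adjusted p = 2.50e-05). TNC, tenascin-C of the blastema matrix, had 917, 1163 and 1038 CPM in control cells and 503, 264 and 338 CPM in Tig1 cells, groups that did not overlap and a difference that missed the threshold (log2 fold change −1.5, SE 0.53, adjusted p = 0.0795). The calls of FBN3, THBS2, OGN, BGN and ECM1 were kept with any 1 library left out and those of others ended: FBLN1 (3 of 6, 0.086 without Tig1 replicate 3), HAS2 (6 of 6, 0.17 without Tig1 replicate 3), LTBP1 (2 of 6, 0.059 without Tig1 replicate 3) and MFAP2 (2 of 6, 0.077 without Tig1 replicate 2). The lower calls numbered 5 without Tig1 replicate 2 and 4 without Tig1 replicate 3, but 19 with DESeq2, 17 in a fit of the 6 libraries and 28 with every gene with a count.

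Cartilage genes gave 0 higher and 0 lower calls of 21, with a median of −1.08, and their sums overlapped (4600.0 to 11500.0 CPM in control cells and 9271, 749 and 1648 CPM in Tig1 cells). COL2A1, the collagen of cartilage, had 1576, 2568 and 3622 CPM in control cells and 3359, 293 and 593 CPM in Tig1 cells, with Tig1 replicate 1 within the range of the controls. Of 34 matrix metalloproteinases, ADAM proteases and inhibitors 4 were higher and 3 lower. MMP2, a gelatinase of fibroblasts, fell (585, 526 and 666 CPM in control cells and 401, 240.1 and 178 CPM in Tig1 cells; log2 fold change −1.12, SE 0.29, adjusted p = 0.0137). MMPE, a salamander metalloproteinase, had 6.02, 1.32 and 1.85 CPM in control cells and 0.0601, 0.0492 and 0 CPM in Tig1 cells or 0.0131-fold (95% counting interval 0.00158 to 0.0479) the control level. MMP19 rose (log2 fold change 2.47, SE 0.33, adjusted p = 2.28e-05), as did ADAM8, a protease of leukocytes (log2 fold change 2.42, SE 0.43, adjusted p = 4.75e-04). MMP7 (matrilysin) had no count in control cells and 4.21, 17.9 and 0 CPM in Tig1 cells, at least 245-fold higher. The third lower call was that of ADAM22, a catalytically inactive ADAM protein of neurons (log2 fold change −4.54, SE 1.43, adjusted p = 0.0488). Without control replicate 3 or Tig1 replicate 2 or 3 only 1 lower call was left, that of MMPE, which was kept with any 1 library left out. The other lower calls ended as follows: MMP2 (3 of 6, 0.088 without Tig1 replicate 2) and ADAM22 (6 of 6, 0.12 without control replicate 3).

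Adhesion receptors were called in both directions, 7 of 36 higher and 2 lower, with a median of −0.02. The higher ones included integrin chains of leukocytes. ITGB7 had 1.44, 0.165 and 0.480 CPM in control cells and 85.1, 164 and 207 CPM in Tig1 cells (log2 fold change 7.70, SE 0.95, adjusted p = 1.07e-05). ITGAE had 0.818, 0 and 0 CPM in control cells and 24.7, 58.8 and 54.0 CPM in Tig1 cells (log2 fold change 7.23, SE 1.02, adjusted p = 7.35e-05). ITGB2, the beta chain of the leukocyte integrins, had 2 counts in control cells and was 162-fold (95% counting interval 44.2 to 1350.0) higher. SDC3, a syndecan, also rose (93.9, 115 and 120.1 CPM in control cells and 333, 417 and 411 CPM in Tig1 cells; log2 fold change 1.82, SE 0.27, adjusted p = 7.97e-05), except with library size alone (adjusted p = 0.098). The lower ones were cadherins of mesenchyme, CDH6 (101, 135 and 150.4 CPM in control cells and 13.7, 33.4 and 19.7 CPM in Tig1 cells; log2 fold change −2.53, SE 0.60, adjusted p = 0.00700) and CDH11 (615, 486 and 444 CPM in control cells and 171, 110.0 and 53.3 CPM in Tig1 cells; log2 fold change −2.21, SE 0.63, adjusted p = 0.0256). The call of CDH11 ended in 4 of the 6 removals of 1 library (0.12 without Tig1 replicate 3). With library size alone 4 adhesion receptors were higher, and with every gene with a count 11 were higher and 7 lower.

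Guidance genes were called in both directions. Of 54 Eph, ephrin, semaphorin, plexin, slit and netrin genes 8 were higher and 5 lower, with a median of −1.12, and 25 had all Tig1 libraries below the controls. The lower calls were 16 in a fit of the 6 libraries, 17 with every gene with a count and 10 with DESeq2, and 3, 3, 1 and 2 without control replicate 2 or 3 or Tig1 replicate 2 or 3. The higher ones were semaphorins of classes 4 and 7 and plexins, with SEMA4A at 2.03, 1.98 and 3.03 CPM in control cells and 68.7, 156 and 168 CPM in Tig1 cells (log2 fold change 5.80, SE 0.42, adjusted p = 5.70e-08) and PLXNC1, a receptor for SEMA7A, at 1.05, 0.275 and 1.03 CPM in control cells and 74.7, 125 and 162 CPM in Tig1 cells (log2 fold change 7.21, SE 0.62, adjusted p = 2.33e-07). SEMA7A itself rose (log2 fold change 3.75, SE 0.80, adjusted p = 0.00271). The lower ones were EFNA5, an ephrin (39.0, 42.6 and 63.1 CPM in control cells and 13.8, 10.1 and 2.05 CPM in Tig1 cells; log2 fold change −2.46, SE 0.62, adjusted p = 0.0104), and others. These were the netrin receptors UNC5B (195, 175 and 149 CPM in control cells and 47.3, 22.9 and 29.2 CPM in Tig1 cells; log2 fold change −2.38, SE 0.58, adjusted p = 0.00783), UNC5C (log2 fold change −2.39, SE 0.71, adjusted p = 0.0335) and NEO1 (log2 fold change −2.18, SE 0.56, adjusted p = 0.0126), and SEMA3G (log2 fold change −2.37, SE 0.71, adjusted p = 0.0346). Of 10 Eph receptors none was called, with a family median of −1.69. The call of EFNA5 was kept with any 1 library left out, and the others ended as follows: UNC5B (1 of 6, 0.056 without Tig1 replicate 2), UNC5C (4 of 6, 0.14 without Tig1 replicate 3), NEO1 (2 of 6, 0.071 without Tig1 replicate 3) and SEMA3G (5 of 6, 0.14 without Tig1 replicate 3).

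Proximal and distal identity genes are those for which Tig1 was studied in the limb. Of 13 proximal genes 1 was higher and 0 lower, with a median of 0.04. All Tig1 libraries lay below all control libraries in 4 of them and above in 1, beside 14.9% and 16.9% of all genes. PROD1, a salamander protein of the Ly6 family that marks proximal cells (AMEX60DD028208, chromosome 3p from 722854759 to 722913067), had no count in control cells and 7.76, 9.89 and 2.43 CPM in Tig1 cells, at least 197-fold higher (adjusted p = 7.37e-05). MEIS1 had 0.164, 0.879 and 0.258 CPM in control cells and 9.86, 0.591 and 1.66 CPM in Tig1 cells (log2 fold change 3.23, SE 1.38, adjusted p = 0.154). MEIS2 had 0.458, 0.714 and 0.0369 CPM in control cells and 6.98, 0.394 and 0.128 CPM in Tig1 cells (log2 fold change 2.64, SE 1.81, adjusted p = 0.384). In both MEIS genes Tig1 replicate 1 was the highest of the 6 libraries and the groups overlapped, and neither was called. Without Tig1 replicate 1 the value of MEIS2 was −0.54. SHOX2, a homeobox gene of the upper arm, had 7.46, 11.3 and 13.3 CPM in control cells and 9.68, 4.08 and 1.28 CPM in Tig1 cells (log2 fold change −1.08, SE 0.85, adjusted p = 0.461). Of 25 distal genes 1 was lower and 0 higher at a median of −1.88, while 19 had all 3 Tig1 libraries below all 3 control libraries. The summed level was 778 to 842 CPM in control cells and 167 to 266 CPM in Tig1 cells. The study names members such as HOXA13 and LHX2 as lower in these same libraries, so the direction of the distal list is not independent evidence. HOXA13, the gene tagged in these animals, had 82.8, 85.1 and 80.6 CPM in control cells and 20.7, 11.9 and 16.6 CPM in Tig1 cells (log2 fold change −2.34, SE 0.59, adjusted p = 0.0115). HOXD13, which acts with it in the hand, had 71.5, 72.7 and 60.4 CPM in control cells and 11.8, 16 and 23.2 CPM in Tig1 cells (log2 fold change −2.01, SE 0.93, adjusted p = 0.190). LHX2, a LIM homeobox gene of distal mesenchyme, had 70.1, 62.0 and 47.1 CPM in control cells and 12.9, 7.38 and 10.9 CPM in Tig1 cells (log2 fold change −2.52, SE 0.87, adjusted p = 0.0695). HOXA11, of the lower arm, had 1.54, 1.81 and 1.37 CPM in control cells and 0.481, 0.492 and 0 CPM in Tig1 cells (log2 fold change −2.16, SE 1.2, adjusted p = 0.273). The groups did not overlap in HOXA13, HOXD13, LHX2 or HOXA11, and of these only HOXA13 was called; its call ended in 1 of the 6 removals of 1 library (0.066 without Tig1 replicate 2). The number of lower distal genes depended on the test: 4 with library size alone, 3 with the replicate number in the model, 8 in a fit of the 6 libraries, 7 with DESeq2 and 14 with every gene with a count tested.

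**Figure D4:**
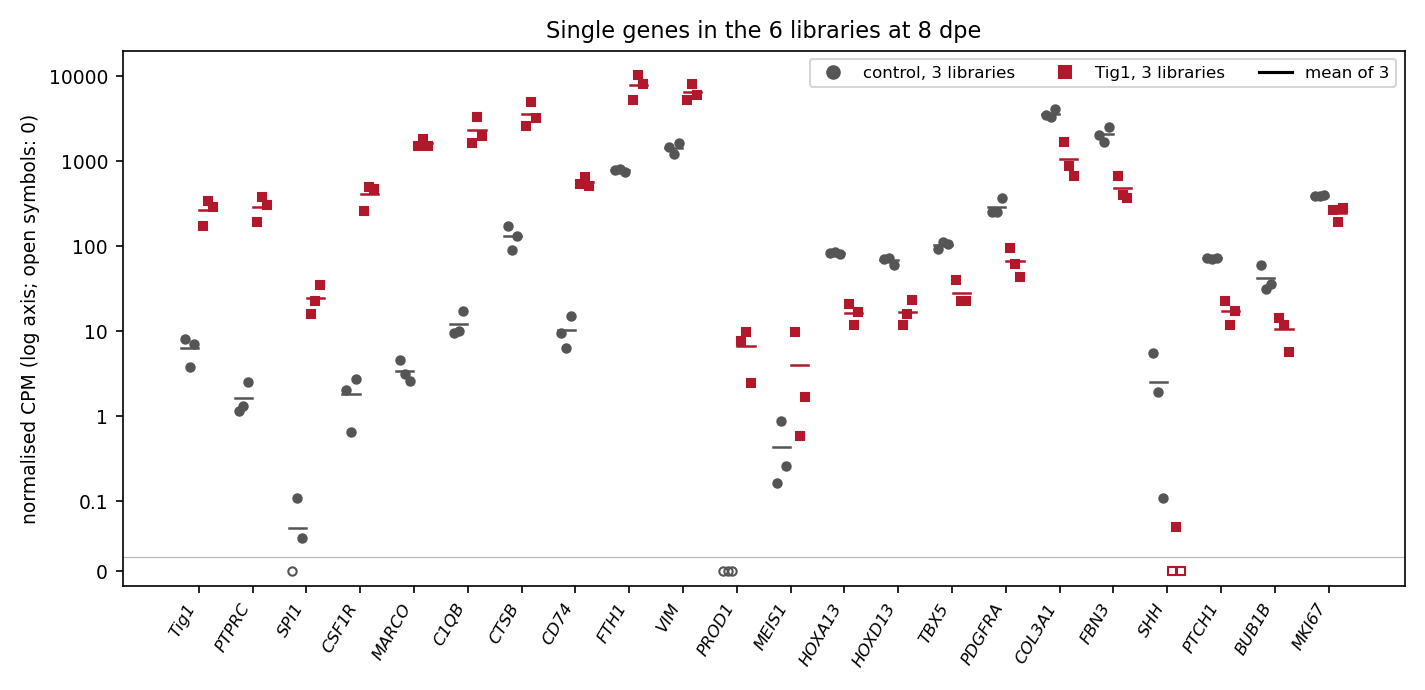
Level (normalised CPM, log axis, open symbols at 0) of 22 genes in the 3 control and 3 Tig1 libraries at 8 dpe, with bars for the mean of 3 libraries. PTPRC, CSF1R, MARCO, C1QB, CTSB and CD74 lie more than 1 order of magnitude apart between the groups, and HOXA13, TBX5, PDGFRA and COL3A1 lie lower in each Tig1 library.

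Limb mesenchyme transcription factors were lower in 4 of 41 cases and higher in 2, with a median of −1.41, and 24 had all Tig1 libraries below the controls. The lower calls were 9 with DESeq2 or in a fit of the 6 libraries and 10 with every gene with a count, and 1 was higher in that fit, with library size alone or without control replicate 1. TBX5, which sets up the forelimb, had 93.4, 112 and 106 CPM in control cells and 40.3, 22.5 and 22.8 CPM in Tig1 cells (log2 fold change −1.86, SE 0.37, adjusted p = 0.00154). GLI3, the transcription factor of hedgehog signalling, had 116, 109 and 117 CPM in control cells and 40.7, 24.6 and 14.3 CPM in Tig1 cells (log2 fold change −2.10, SE 0.65, adjusted p = 0.0410). TCF4, a bHLH factor, had 201, 172 and 226 CPM in control cells and 83.7, 74.7 and 43.5 CPM in Tig1 cells (log2 fold change −1.57, SE 0.33, adjusted p = 0.00264). Each of these lay lower in the 3 Tig1 libraries. PRRX1, given above, was the other lower member. ZEB2, a repressor that also acts in myeloid cells, rose (3.5, 2.09 and 6.31 CPM in control cells and 34.8, 61.6 and 51.2 CPM in Tig1 cells; log2 fold change 3.62, SE 0.40, adjusted p = 2.88e-06), as did RUNX1. TBX18 (−2.0), TBX2 (−2.31), MSX1 (−1.79) and LMX1B (−1.45), factors of limb patterning, had negative log2 fold changes that missed the threshold. The calls of TBX5, TCF4 and ZEB2 were kept with any 1 library left out, and that of GLI3 ended in 5 of the 6 removals of 1 library (0.17 without Tig1 replicate 3).

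Hedgehog signalling genes had 5 lower and 1 higher calls of 20, a median of −1.56, and 14 members with all Tig1 libraries below the controls. With every gene with a count 9 were lower. PTCH1, the receptor and a target of the pathway, had 73.5, 71.7 and 73.7 CPM in control cells and 22.4, 12 and 17.2 CPM in Tig1 cells (log2 fold change −2.09, SE 0.63, adjusted p = 0.0349). SCUBE2 and DISP1, which release the ligand, had 43.1, 39.8 and 41.3 CPM and 44.1, 28.1 and 59.6 CPM in control cells and 14.3, 3.44 and 12.4 CPM and 16.8, 17.1 and 18.7 CPM in Tig1 cells. SHH, the ligand of the posterior limb, had 5.63, 1.92 and 0.111 CPM in control cells and 0, 0.0492 and 0 CPM in Tig1 cells, that is 1 count in all Tig1 libraries together or 0.00807-fold (95% counting interval 2.03e-04 to 0.0455) the control level (adjusted p = 0.0381). Its control libraries differed widely, with control replicate 3 close to the Tig1 libraries. GLI1, a target of the pathway, had 3.67, 3.57 and 6.31 CPM in control cells and 1.08, 0.295 and 0.384 CPM in Tig1 cells and was not called (log2 fold change −2.91, SE 1.19, adjusted p = 0.132). DISP2, a relative of DISP1, had no count in control cells and 0.722, 4.13 and 0.384 CPM in Tig1 cells, at least 55.9-fold higher. Calls that ended with libraries left out were PTCH1 (5 of 6, 0.13 without Tig1 replicate 2), SCUBE2 (1 of 6, 0.073 without Tig1 replicate 2), DISP1 (5 of 6, 0.14 without control replicate 3), SHH (5 of 6, 0.16 without control replicate 1) and DISP2 (4 of 6, 0.064 without Tig1 replicate 2). All of these calls were lost when Tig1 replicate 2 was left out.

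In the FGF list 2 of 27 genes were lower and 1 higher, with a median of −0.75, and 4 were lower with DESeq2 and 8 with every gene with a count. FGF10, the ligand of limb mesenchyme, had 23.3, 24.4 and 21.2 CPM in control cells and 7.16, 7.38 and 2.43 CPM in Tig1 cells (log2 fold change −2.01, SE 0.64, adjusted p = 0.0466). FGFR1, the receptor of mesenchyme, had 134, 147 and 212 CPM in control cells and 63.3, 39.3 and 15.1 CPM in Tig1 cells (log2 fold change −2.06, SE 0.57, adjusted p = 0.0201). SPRED1, an inhibitor of Ras signalling, rose (49.0, 49.4 and 55.5 CPM in control cells and 188, 336 and 308 CPM in Tig1 cells; log2 fold change 2.44, SE 0.28, adjusted p = 5.28e-06). FGF8, a blastema ligand, stayed at or under 2 CPM in all libraries (log2 fold change −0.06, SE 1.11, adjusted p = 0.990). BMP and TGF-beta genes gave 6 lower and 2 higher calls of 38, with a median of −1.43. Lower calls were 3 without control replicate 2 or 3, 10 with DESeq2 and 11 with every gene with a count, and 1 was higher with library size alone or without control replicate 1 or 3. The BMP receptors BMPR1A (83.8, 82.7 and 86.8 CPM in control cells and 41.2, 18.7 and 5.12 CPM in Tig1 cells; log2 fold change −1.95, SE 0.49, adjusted p = 0.0108), BMPR1B (58.6, 87.2 and 101 CPM in control cells and 28.7, 8.66 and 7.56 CPM in Tig1 cells; log2 fold change −2.45, SE 0.67, adjusted p = 0.0184) and BMPR2 (log2 fold change −1.16, SE 0.35, adjusted p = 0.0331) all fell. TGFBR2, the TGF-beta type II receptor, rose (9.39, 21.4 and 13 CPM in control cells and 44.4, 41.8 and 29.8 CPM in Tig1 cells; log2 fold change 1.41, SE 0.35, adjusted p = 0.0105). INHBA, the activin chain, fell (log2 fold change −1.91, SE 0.59, adjusted p = 0.0398). Removal of 1 library ended calls of FGF10 (6 of 6, 0.18 without Tig1 replicate 3), FGFR1 (3 of 6, 0.095 without Tig1 replicate 3), BMPR1A (1 of 6, 0.053 without Tig1 replicate 2), BMPR1B (4 of 6, 0.092 without Tig1 replicate 3), BMPR2 (4 of 6, 0.12 without Tig1 replicate 1), TGFBR2 (3 of 6, 0.087 without control replicate 1) and INHBA (5 of 6, 0.18 without control replicate 2), while that of SPRED1 was kept.

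Wnt genes had 5 lower and 2 higher calls of 51, with a median of −0.84. The lower calls were 3 without control replicate 1 or 2, 9 with DESeq2, 11 in a fit of the 6 libraries and 12 with every gene with a count. WNT5A, a ligand of the distal limb, had 146, 162 and 162 CPM in control cells and 49.4, 34.7 and 22.7 CPM in Tig1 cells (log2 fold change −2.14, SE 0.57, adjusted p = 0.0152). Its receptor RYK had 50.6, 49.9 and 42.7 CPM in control cells and 26.2, 8.96 and 5.25 CPM in Tig1 cells (log2 fold change −1.82, SE 0.47, adjusted p = 0.0125). CTNNB1, beta-catenin, had 864, 654 and 802 CPM in control cells and 441, 196 and 185 CPM in Tig1 cells (log2 fold change −1.5, SE 0.43, adjusted p = 0.0247). The groups did not overlap in any of them. WNT8B had no count in control cells and 6.49, 9.55 and 2.05 CPM in Tig1 cells, at least 180.0-fold higher. SFRP4, a secreted Wnt binder, rose (1.05, 1.70 and 5.39 CPM in control cells and 29.5, 57.0 and 26.9 CPM in Tig1 cells; log2 fold change 3.80, SE 0.70, adjusted p = 7.01e-04). Its relative SFRP1 fell (129, 149 and 137 CPM in control cells and 78.9, 39.5 and 27.7 CPM in Tig1 cells; log2 fold change −1.5, SE 0.47, adjusted p = 0.0406). In the retinoid list 1 of 14 was higher and 1 lower, with a median of 0.03. CRABP2, which carries retinoic acid to its receptor, had 268, 328 and 315 CPM in control cells and 96.9, 83.4 and 39.8 CPM in Tig1 cells (log2 fold change −2.05, SE 0.56, adjusted p = 0.0193). DHRS9, a retinol dehydrogenase, had no count in control cells and 1.80, 0.0984 and 0.384 CPM in Tig1 cells, at least 19.8-fold higher. Notch genes gave 4 higher and 1 lower calls of 21, the lower one lost without any 1 library but Tig1 replicate 1. LFNG, a glycosyltransferase that modifies Notch, rose (6.12, 6.53 and 9.53 CPM in control cells and 71.6, 86.9 and 87.5 CPM in Tig1 cells; log2 fold change 3.47, SE 0.38, adjusted p = 2.46e-06), and so did NOTCH1 (21.4, 18.2 and 24.4 CPM in control cells and 49.9, 52.5 and 73.2 CPM in Tig1 cells; log2 fold change 1.45, SE 0.32, adjusted p = 0.00405). NOTCH3 fell (76.2, 76.2 and 101 CPM in control cells and 30.8, 12.4 and 13.8 CPM in Tig1 cells; log2 fold change −2.15, SE 0.68, adjusted p = 0.0451). Calls ended with libraries left out for WNT5A (2 of 6, 0.083 without Tig1 replicate 3), RYK (2 of 6, 0.075 without Tig1 replicate 2), CTNNB1 (4 of 6, 0.14 without Tig1 replicate 2), SFRP1 (5 of 6, 0.18 without Tig1 replicate 3), CRABP2 (3 of 6, 0.1 without Tig1 replicate 3), DHRS9 (5 of 6, 0.15 without control replicate 1) and NOTCH3 (5 of 6, 0.16 without Tig1 replicate 3), and with library size alone that of NOTCH1 was lost.

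Cell cycle genes lay lower in Tig1 cells with few calls. Of 76 mitosis genes 5 were lower and 1 higher at a median of −0.77, and 51 had all Tig1 libraries below all control libraries. Their summed level was 2580.0 to 3320.0 CPM in control cells and 1420.0 to 1920.0 CPM in Tig1 cells. BUB1B, of the spindle checkpoint, had 60.1, 31.4 and 36.4 CPM in control cells and 14.4, 12 and 5.63 CPM in Tig1 cells (log2 fold change −1.99, SE 0.49, adjusted p = 0.00965). KNL1, a kinetochore scaffold, had 25.5, 20.5 and 21.3 CPM in control cells and 4.39, 7.58 and 8.07 CPM in Tig1 cells (log2 fold change −1.75, SE 0.44, adjusted p = 0.0115). NCAPG (−1.35), NCAPG2 (−1.34) and NCAPH (−1.18), subunits of condensin, made up the other lower calls, and CDC25B, a phosphatase that starts mitosis, was the higher one (38.7, 37.8 and 38.6 CPM in control cells and 78.7, 107 and 73.9 CPM in Tig1 cells; log2 fold change 1.17, SE 0.30, adjusted p = 0.0127). MKI67, the proliferation marker Ki-67, had 388, 390.5 and 402 CPM in control cells and 269, 194 and 284 CPM in Tig1 cells (log2 fold change −0.66, SE 0.24, adjusted p = 0.0888) and was lower in every Tig1 library without passing the threshold. Of 55 DNA replication genes 3 were lower and 0 higher, with a median of −0.67 and 30 below all controls. DUT, which keeps uracil out of DNA, had 138, 104 and 92.6 CPM in control cells and 49.8, 45.6 and 29.1 CPM in Tig1 cells (log2 fold change −1.43, SE 0.44, adjusted p = 0.0406). None of the 7 MCM helicase genes was called. Among G1 genes CCND3, a D-type cyclin, rose (5.92, 8.29 and 9.78 CPM in control cells and 14.9, 26.1 and 26.8 CPM in Tig1 cells; log2 fold change 1.5, SE 0.37, adjusted p = 0.00869). CDKN1B (p27) had 58.4, 65.5 and 76.4 CPM in control cells and 77.1, 128 and 178 CPM in Tig1 cells (log2 fold change 0.93, SE 0.31, adjusted p = 0.0597). Single libraries ended calls of BUB1B (2 of 6, 0.06 without control replicate 1), KNL1 (1 of 6, 0.056 without Tig1 replicate 1), NCAPG (3 of 6, 0.11 without Tig1 replicate 2), NCAPG2 (4 of 6, 0.091 without Tig1 replicate 3), NCAPH (2 of 6, 0.063 without control replicate 1), CDC25B (4 of 6, 0.13 without Tig1 replicate 2), DUT (6 of 6, 0.17 without Tig1 replicate 3) and CCND3 (2 of 6, 0.072 without control replicate 1). The number of lower mitosis genes was 12 with library size alone, with every gene with a count or in a fit of the 6 libraries, 8 without the mitochondrial genes, 15 with DESeq2 and 3 without Tig1 replicate 2. That of replication genes was 5 in that fit, 9 with every gene with a count and 10 with DESeq2. The 3 lower replication genes were POLD1, DUT and RPA3. All 3 calls were lost with library size alone, and also without control replicate 1, Tig1 replicate 2 or Tig1 replicate 3.

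Among 38 apoptosis, growth arrest and stress genes 5 were higher and 1 lower. The higher calls were 3 with library size alone, 8 with DESeq2 or a filter of 1 CPM in 3 libraries and 9 with every gene with a count, and none was lower in a fit of the 6 libraries, with the replicate block or without any 1 library but Tig1 replicate 1. BCL2L11 (BIM), which promotes apoptosis, had 8.84, 6.15 and 10.3 CPM in control cells and 42.4, 65.7 and 81.6 CPM in Tig1 cells (log2 fold change 2.90, SE 0.34, adjusted p = 6.20e-06). APAF1, of the apoptosome, had 6.58, 7.47 and 7.49 CPM in control cells and 28.0, 17.3 and 43.3 CPM in Tig1 cells (log2 fold change 2.04, SE 0.39, adjusted p = 9.70e-04). Chromatin regulators gave 7 lower and 2 higher calls of 71, with a median of −0.27. The lower calls were 3 without control replicate 3 or Tig1 replicate 2, where 1 was higher, 4 in a fit of the 6 libraries and 12 with DESeq2. Higher calls were 0 with library size alone, 4 with DESeq2 and 5 with every gene with a count. DNMT3A, a de novo DNA methyltransferase, had 60.002, 45.2 and 59.5 CPM in control cells and 21.8, 14.2 and 15.1 CPM in Tig1 cells (log2 fold change −1.69, SE 0.46, adjusted p = 0.0185). CBX5 (HP1 alpha) had 299.5, 196 and 233 CPM in control cells and 93.1, 109 and 51.7 CPM in Tig1 cells (log2 fold change −1.52, SE 0.36, adjusted p = 0.00667). HDAC2, a histone deacetylase, had 179, 132 and 127 CPM in control cells and 73.3, 72.4 and 57.5 CPM in Tig1 cells (log2 fold change −1.11, SE 0.26, adjusted p = 0.00659). All 3 were lower in each Tig1 library, and the call of DNMT3A ended in 4 of the 6 removals of 1 library (0.075 without Tig1 replicate 3). Splicing genes had 3 lower calls of 42 and none higher, SRSF1 (−1.03), SNRPD1 (−0.99) and PRPF8 (−0.79), with 8 lower without the mitochondrial genes in the scaling and 11 with DESeq2. These calls ended in SRSF1 (4 of 6, 0.14 without control replicate 1), SNRPD1 (4 of 6, 0.13 without Tig1 replicate 3) and PRPF8 (4 of 6, 0.15 without control replicate 1). Library size alone ended the calls of APAF1, SRSF1 and PRPF8. No gene was called among 69 cytosolic ribosomal protein genes, 57 nuclear genes of oxidative phosphorylation and 33 proteasome and chaperonin genes, whose medians were −0.27, −0.28 and −0.31.

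The 12 largest falls among genes with a symbol, at least 4 CPM and no overlap were SCRN1, MGP, FAM161B, NOV, HAS2, CDH6, PHLDA1, PRRT3, HSPA12B, EFNA5, FBLN1 and BMPR1B. SCRN1 (secernin) had 15.1, 10.4 and 16.5 CPM in control cells and 2.04, 1.43 and 0.768 CPM in Tig1 cells (log2 fold change −3.29, SE 0.81, adjusted p = 0.00920). MGP, the matrix Gla protein that inhibits calcification, had 59.4, 62.2 and 164 CPM in control cells and 18.9, 6.94 and 14.9 CPM in Tig1 cells (log2 fold change −2.82, SE 0.86, adjusted p = 0.0386). NOV (CCN3), a matricellular protein, had 146, 241 and 310.2 CPM in control cells and 72.3, 13.9 and 29.5 CPM in Tig1 cells (log2 fold change −2.59, SE 0.83, adjusted p = 0.0486). PHLDA1, a pleckstrin homology-like protein, had 87.8, 115 and 94.3 CPM in control cells and 31.6, 13.8 and 5.89 CPM in Tig1 cells (log2 fold change −2.52, SE 0.52, adjusted p = 0.00207). The 12 falls lay between −3.29 and −2.45 on the log2 scale. FAM161B (log2 fold change −2.73, SE 0.79, adjusted p = 0.0268), PRRT3 (log2 fold change −2.49, SE 0.62, adjusted p = 0.0103) and HSPA12B, a member of the HSP70 family (log2 fold change −2.48, SE 0.79, adjusted p = 0.0491), completed the set. In CPM the largest fall was that of AXRNBP, with 7089.8, 3467 and 4328 CPM in control cells and 1905, 1967 and 1093 CPM in Tig1 cells (log2 fold change −1.58, SE 0.43, adjusted p = 0.0175), followed by COL3A1, FSTL1, FBN3, MFAP2, THBS2, FKBP10 and COL6A1. Calls ended with libraries left out for MGP (4 of 6, 0.16 without control replicate 3), NOV (5 of 6, 0.16 without Tig1 replicate 2), FAM161B (4 of 6, 0.095 without Tig1 replicate 3), HSPA12B (5 of 6, 0.18 without Tig1 replicate 3) and AXRNBP (3 of 6, 0.1 without control replicate 1), and were kept for SCRN1, PHLDA1 and PRRT3. In a fit of the 6 libraries the call of PRRT3 was lost (adjusted p = 0.061).

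Grouped by gene family, the share of called members differed widely from the background of 11.9%. Beyond the families already given, 6 of 10 purine receptors, 10 of 24 interleukin receptors, 5 of 11 DOCK exchange factors and 10 of 27 ATP-binding cassette transporters were higher and none of them lower. Rab GTPases, which direct vesicle traffic, had 15 higher and 2 lower of 46. RAB7A, of late endosomes, rose (154, 83.7 and 97.9 CPM in control cells and 256, 448 and 364 CPM in Tig1 cells; log2 fold change 1.67, SE 0.33, adjusted p = 0.00147), as did RAB32 (log2 fold change 1.25, SE 0.28, adjusted p = 0.00496) and RAB27A (log2 fold change 2.79, SE 0.42, adjusted p = 7.73e-05), of lysosome-related organelles, although with library size alone RAB7A and RAB32 were not called. RAB34, which acts in cilia, fell (62.5, 55.4 and 59.3 CPM in control cells and 19.6, 23.7 and 4.35 CPM in Tig1 cells; log2 fold change −1.88, SE 0.53, adjusted p = 0.0219). Removal of single libraries ended the calls of RAB34 (2 of 6, 0.074 without Tig1 replicate 3) and RAB32 (1 of 6, 0.089 without Tig1 replicate 2). HOX genes had 1 lower of 19 at a family median of −1.83, LIM homeobox genes 0 of 5 at −1.99, and potassium channels 4 higher of 45. Of 97 zinc finger genes 2 were higher and 4 lower, and of 67 mitochondrial ribosomal protein genes 1 was higher and 1 lower.

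The same comparison at 3 dpe, made on other libraries, gives values to set beside these. At 3 dpe 24% of the genes tested were called, 15.5% higher and 8.48% lower. Of the 3020 genes called at 8 dpe, 2688 were also called at 3 dpe in the same direction and 0 in the opposite direction. Medians of the lists were 6.55 at 3 dpe and 7.12 at 8 dpe for myeloid identity, 2.91 and 2.48 for lysosome genes, −2.39 and −1.5 for connective tissue, −2.45 and −1.88 for distal genes and −1.43 and −0.77 for mitosis genes. Muscle genes had −0.91 at 3 dpe and 3.22 at 8 dpe. The electroporated gene itself had log2 fold changes of 5.95 and 5.40 for LOC115479139 (difference −0.55, SE 0.61, adjusted p = 0.87). Tested as 8 minus 3 dpe, 3 genes (0.0118% of those tested) differed in their response at an adjusted p under 0.05. Of these, 1 was higher (0.00394%) and 2 lower (0.00788%). At an unadjusted p under 0.05 there were 1917 of the 25377 genes tested, a share above 0.05. HOXA13 and COL3A1 had −2.64 and −2.84 at 3 dpe beside −2.34 and −1.76 at 8 dpe, neither of them among the 3. The number was 0 with library size alone or in a fit of 12 libraries and 134 with DESeq2, and 0 to 11 with 1 library left out.

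**Figure D5:**
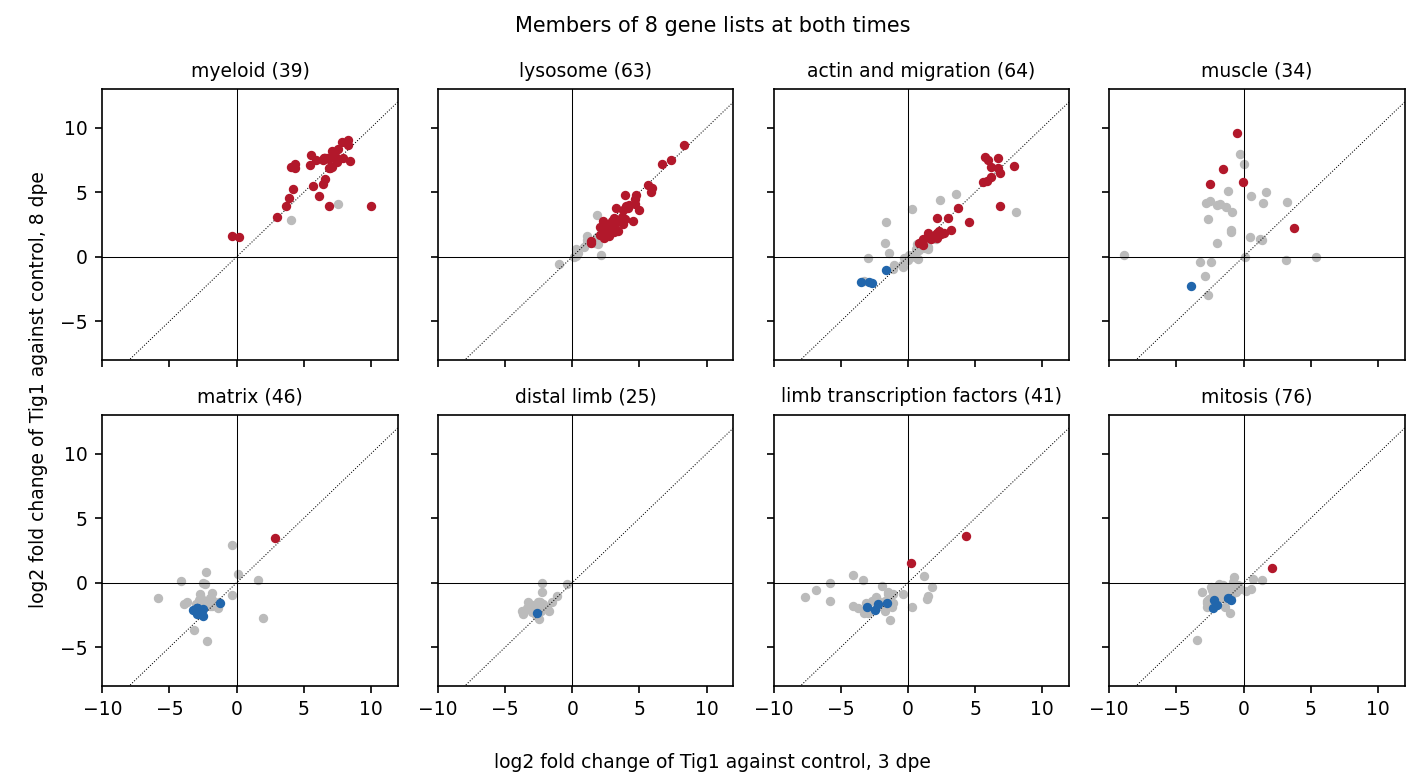
Log2 fold change of Tig1 against control cells at 3 dpe (horizontal) and 8 dpe (vertical) for the members of 8 gene lists, coloured where called at 8 dpe. Myeloid and lysosome genes lie high at both times, matrix, distal and mitosis genes lie low at both, and muscle genes spread upwards at 8 dpe only in part of the list.

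Cells with Tig1P155A at 8 dpe were compared with the same control libraries, so that their values are not independent of those above. Of the genes tested 12.4% were called for Tig1P155A against control, 10.6% higher and 1.72% lower. The medians of myeloid identity, lysosome, connective tissue, distal and hedgehog genes were 7.38, 2.38, −1.80, −1.49 and −1.91 with Tig1P155A and 7.12, 2.48, −1.5, −1.88 and −1.56 with Tig1. LOC115479139, the electroporated gene, was 5.28 with Tig1P155A. HOXA13 had a log2 fold change of −1.49 (adjusted p = 0.109) with Tig1P155A and −2.34 with Tig1. In the direct comparison of Tig1 with Tig1P155A at 8 dpe edgeR called 0 genes. At an unadjusted p under 0.05 there were 1169 of the 25377 genes tested, a share below 0.05. With DESeq2 the calls numbered 23. The smallest p-values belonged to DNAJC6, SYNE4, PROB1, NMRK1, CAMTA1 and GPRIN3, none of them with an adjusted p under 0.92. DNAJC6 (auxilin, which uncoats clathrin vesicles) had no count in Tig1 cells and 0.917, 0.220 and 0.295 CPM in control cells, and SYNE4 (nesprin-4) had 0.164, 0 and 0 CPM in control cells and 0.962, 0.0492 and 16.8 CPM in Tig1 cells, with its level in Tig1 replicate 3. Against control cells both passed the threshold, and their calls ended in DNAJC6 (6 of 6, 0.12 without control replicate 1) and SYNE4 (3 of 6, 0.41 without Tig1 replicate 3).

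Of 31 genes that the study names for this experiment, 28 could be tested. The study tested with DESeq2, and the calls given here are those of edgeR. Over all genes DESeq2 called 1050 lower in place of 327, so a gene not called here may have passed in the study. PROD1 and SDC3 were higher and HOXA13, FSTL1 and COL3A1 lower, and in 16 of the 28 all Tig1 libraries lay below all control libraries, beside 14.9% of all genes. These genes were named from the same libraries, so their direction here is not independent evidence. The paper also measured some of them by qRT-PCR, on these libraries and on additional replicates prepared in the same way. It reports PROD1 higher there and HOXA11, HOXA13, LHX2, ENPP2 and EPHA7 lower. Of those that missed the threshold, BMP7, a ligand of the limb, had 19.2, 13.3 and 17.6 CPM in control cells and 4.87, 6.40 and 3.46 CPM in Tig1 cells (log2 fold change −1.76, SE 0.81, adjusted p = 0.190). ENPP2 (autotaxin) had 182, 185 and 253 CPM in control cells and 35.1, 37.1 and 65.4 CPM in Tig1 cells (log2 fold change −2.17, SE 0.82, adjusted p = 0.103). FN1, fibronectin, had 68.9, 97.6 and 136 CPM in control cells and 71.1, 17.9 and 17.3 CPM in Tig1 cells (log2 fold change −1.51, SE 0.62, adjusted p = 0.138). The groups did not overlap in BMP7 and ENPP2, and in FN1 Tig1 replicate 1 lay within the range of the controls. CDH1, the epithelial cadherin, had 4.39, 0.769 and 0 CPM in control cells and 86.4, 0.0984 and 26.8 CPM in Tig1 cells (log2 fold change 4.44, SE 1.86, adjusted p = 0.146), with its levels in Tig1 replicates 1 and 3, and BCL11A, a transcription factor, 71.1, 93.6 and 83.5 CPM in control cells and 60.5, 46.1 and 47.6 CPM in Tig1 cells (log2 fold change −0.69, SE 0.32, adjusted p = 0.199).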

How the data were processed

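RNA was measured in libraries of 300 sorted cells. According to the methods and labels, reads were demultiplexed with bcl2fastq 2.19.1 and aligned with STAR 2.7.6a to AmexG_v6.0-DD, to which HoxA and HoxD models, the mitochondrial genome and spike-in sequences had been added, and uniquely mapped reads were counted per gene with featureCounts 2.0.1. The values the authors deposited are raw counts per gene model, without normalization or filter. Strandedness is not given in the sources used here, so overlapping and antisense genes cannot be told apart, and reads shared by close copies were not counted. The 92 spike-in rows held 0 counts and were left out, and mitochondrial genes were kept.

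Groups were taken from the sample labels, 3 libraries each. The test was the quasi-likelihood test of edgeR 4.0.16, run under R 4.3.3 (TMM scaling, 6 group means over the 18 libraries), with limma 3.58.1 and the data.table package (1.17.8), while matplotlib 3.10.9 under Python 3.11.15 made the plots. Gene models that reached 0.5 CPM in any 1 library were tested, p-values were adjusted over all of them (Benjamini-Hochberg), and the threshold was 0.05. Counts of 25376 genes were also simulated for Tig1 against control at 8 dpe, with 100 genes changed by 2 on the log2 scale and 100 by 1. The test recovered 30 of the former and 4 of the latter, with 2 false calls. Recovery and false calls with as many called genes as the 3020 of the libraries, 2693 of them higher, were not tested.

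Members and gene lists were chosen with earlier results of these data known. Named genes were the 12 largest rises and 12 largest falls among called genes with a symbol, at least 4 CPM and no overlap between groups, the 8 largest rises and 8 largest falls in CPM without mitochondrial genes, up to 3 members of each list in each direction with the smallest p, members that define a cell type, every gene the study names for this experiment, and up to 6 genes with the smallest p in the difference between times or between the Tig1 forms. Other list members were named with their values known. A few genes that the rule names are not reported here. Symbols were matched without endings such as .L and .S, without hyphens and with a few older names, decided after the symbols were seen, and a symbol with several models stands for the model of highest mean count. Ratios against a group at 0 are against 3 counts over the group, and other ratios from few counts have exact 95% counting intervals.

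Alternatives were DESeq2 size factors, library size alone, no mitochondrial genes, a test with DESeq2 1.42.0, a lower filter (any gene with a count), a stricter one (1 CPM or more in 3 or more libraries), a fit of the compared libraries alone, the replicate number as a block, thresholds of 0.001 or of 2-fold, and each library left out in turn. Replicate numbers were not taken as pairs. Library totals of 9732514 to 21882340 counts limit the precision of low genes. No coordinates or sequences of other assemblies were used.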

Additional observations from a re-analysis of the deposited data

Results flagged for a closer look

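The effect of Tig1 differed between 8 and 3 dpe in 3 genes by the interaction test of edgeR's fit (effect at 8 dpe minus effect at 3 dpe), and all 3 were called higher at both times. LOC115482310 had 1.41, 1.21 and 0.960 CPM in control and 89.5, 189 and 145 CPM in Tig1 cells at 8 dpe, against 17.8, 21.4 and 16.3 CPM and 224, 124 and 151 CPM at 3 dpe. Its difference was 3.71 on the log2 scale (SE 0.52, adjusted p = 0.013), with control cells lower at 8 dpe. LOC115092336 had 25.3, 31.5 and 21.8 CPM in control and 72.7, 90.7 and 99.8 CPM in Tig1 cells at 8 dpe, against 6.86, 8.66 and 7.15 CPM and 116, 148 and 175 CPM at 3 dpe, a difference of −2.53 (SE 0.37, adjusted p = 0.018). AIF1L, a relative of AIF1, had 4.71, 6.70 and 7.27 CPM in control and 19.0, 25.9 and 7.04 CPM in Tig1 cells at 8 dpe, where the groups overlapped, against 0.454, 0.494 and 0.934 CPM and 45.1, 49.9 and 36.4 CPM at 3 dpe, a difference of −4.63 (SE 0.61, adjusted p = 0.013). At 8 dpe the call of AIF1L against control ended in 5 of the 6 removals of a library, with an adjusted p of 0.17 without Tig1 replicate 2, with library size alone (0.22) and in the fit of the 6 libraries (0.083).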

How the results depend on the processing

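The number of genes called at 8 dpe was 3020, and between 2108 (library size alone) and 4288 (DESeq2) under other scalings, filters and tests, 2898 with the replicate number as a block and 2237 to 3147 with 1 library left out; only an adjusted p under 0.001 moved it by over 1.5 times, to 1353 (6 of them lower). Residual correlations of the same-numbered control and Tig1 libraries were 0.117, −0.22 and 0.104, and 1 of the 3 control libraries correlated best with its own number. With 3 libraries per group this check cannot exclude pairs. The main fit did not take the numbers as pairs, and the replicate block is the alternative that used them. With library size alone the median of genes with at least 4 CPM moved by −0.53 and without the mitochondrial genes by −0.17, and 1935 of the calls were shared in direction with library size alone. The difference between times (3 genes) had 0 calls with library size alone, in the fit of 12 libraries and at an adjusted p under 0.001, 404 with every gene with a count, 134 with DESeq2 and 0 to 11 with 1 library left out. Between the Tig1 forms (0 genes) there were 226 with every gene with a count and 23 with DESeq2, and 0 with any 1 library left out.

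Of 293 single genes recomputed 255 were called. None of these changed direction, 147 were called in every alternative, 91 lost the call when a library was left out and 58 under another alternative. Among those named, library size alone ended AIF1L, ALDOA, APAF1, ARPC2, ARPC3, ARPC5, ATP6V1D, AXL, CCND3, CDC25B, CIITA, DHRS9, DUT, IL34, INSIG1, NFKB2, NOTCH1, PKM, POLD1, PRPF8, RAB32, RAB7A, RPA3, RUNX1, SDC3, SOAT1, SRSF1, STAT2, TFRC, TGFBR2 and VIM. The fit of the 6 libraries ended AIF1L, BMPR1A, BMPR2, C5, CIITA, DHRS9, DNAJC6, FKBP10, KRT18, MMP2, NCAPH, NEB, PLS3, PRPF8, PRRT3, RAB34, RUNX1, RYK, SNRPD1, SRSF1 and SYNE4, the replicate block ADAM22, C5, DHRS9, DUT, INHBA, MYL1, NEB, NOV, PRPF8, PRRX1, SYNE4 and THEM6, and testing every gene with a count CIITA, PLS3, POLD1, PRPF8, PRRX1 and SNRPD1. DESeq2 size factors and leaving out the mitochondrial genes each ended DHRS9. The causes were not tested.

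Genes without a call were called under at least 1 alternative in 20 cases and changed sign in 8 cases. Library size alone gave −0.115 for IGFBP1, −0.0375 for MMP13 and −0.0534 for PROB1, the block 0.0216 for COL8A1 and 0.272 for FGF8, and the fit of 6 libraries 0.00516 for FGF8. With 1 library left out the values ran from −2.84 to 10.3 for CDH5, −0.78 to 0.0731 for COL8A1, −0.54 to 0.586 for FGF8, −0.45 to 1.4 for IGFBP1, −5.26 to 6.63 for KRT5, −0.544 to 3.3 for MEIS2 and −1.01 to 1.15 for MMP13. Tig1 replicate 1 decided the sign of CDH5, KRT5, MEIS2 and MMP13. List medians ran from −1.01 to 0.233 for Schwann and neural genes, −0.637 to 3.88 for endothelial markers and −0.204 to 0.794 for erythroid markers, which had −0.05 with library size alone. Depth limits low genes, with 3 counts equal to 0.384 normalised CPM in Tig1 replicate 3.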
